A study of Mus musculus with 8 samples.

Results

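Cxcl12, Cxcr4, Cxcr7 and Rgs16 form a signalling axis that is followed here in wire-injured carotid arteries of mice with and without the microRNA miR-126. Their probes were taken by gene name from the noncontrol probes of the array. The 4 genes had 5 probes, out of 36413 gene names and 55681 probes in all, because Cxcl12 had 2. Cxcr7 is the older name, used on the array, of the gene now called Ackr3.

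There were 4 miR-126-/- mice, which were also ApoE-/-, and 4 miR-126+/+ control mice, ApoE-/- as well. Every mouse was thus of a genotype without apolipoprotein E, was fed a western-type diet, was female and 6 weeks old per the labels, and came from a mixed genetic background. Carotid RNA was isolated 14 days after the injury, and 100 ng from each mouse was labelled with Cy3 and hybridised to 1 array of its own. Levels are log2 signals minus that of the array's own 75th percentile, so 0 is the level that 75 percent of the probes fall under, and a difference of 1 is a doubling.

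CXCL12 is a chemokine that retains and recruits leukocytes and progenitor cells, and in injured arteries it is known for drawing progenitors of smooth muscle cells to the lesion. It signals through CXCR4, which couples to inhibitory G proteins, whereas CXCR7 binds the same ligand, recruits arrestins and removes CXCL12 from the surroundings. RGS16 speeds up the GTPase of G protein alpha subunits and so shortens signalling by CXCR4. In endothelial cells Rgs16 is a known target of miR-126, and the microRNA is known to raise Cxcl12 through that repression.

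The mature strand of the microRNA that the mutant mice lack is shown to give the seed through which it recognises targets, with the seed (bases 2 to 8) in capitals, 5′ to 3′.
mmu-miR-126a-3p: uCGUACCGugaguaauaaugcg
The 22-base sequence is from RefSeq on build GRCm38.p6, where it lies at chr2:26591402-26591423 on the + strand. Its seed pairs with the DNA site CGGTACG. That site, searched in the probe sequences as the files write them, was in 0 of the 5 probes of Cxcl12, Cxcr4, Cxcr7 and Rgs16 and in 0.0198% of all probes of the array. The probes are 60 bases long and cover only a small piece of each transcript, so this says nothing of target sites elsewhere in them. No probe of the array was named for miR-126.

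On the mm9 build given in the array files, the brighter Cxcl12 probe lies at chr6:117131227-117131286 and is annotated to transcript variant 3. The other Cxcl12 probe, annotated to transcript variant 1, lies 6201 bases before it at chr6:117125026-117125085, both on the + strand. The Cxcr4 probe lies at chr1:130485079-130485138 on the - strand. The Cxcr7 probe is at chr1:92111803-92111862 and the Rgs16 probe at chr1:155592244-155592303, both on the + strand. Whether these intervals are coding or untranslated was not analysed here.

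The arrays had 55.9% to 61.5% of their probes well above background, no saturated probe, and correlations with one another of 0.972 to 0.984. All 5 probes of the axis were well above background on 8 of 8 arrays. Egfl7, the host gene of miR-126, was measured at 6.51 ± 0.19 in miR-126-/- and 6.01 ± 0.17 in miR-126+/+ arteries (SD, n = 4 each). Its adjusted p was 0.275 (limma), and its probe does not measure the microRNA, so it cannot check the genotype labels. All 8 arrays shared 1 slide, with the miR-126-/- arrays in its row 2 and the miR-126+/+ arrays in its row 1, so that position on the slide cannot be told apart from genotype. In whole tissue, fewer cells of a type and less RNA per cell cannot be told apart either.

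One array stood apart in the values of these genes. miR-126+/+ 3 had the highest value of its genotype for all 5 probes, as it did for 41.9% of all probes tested, and the highest of all 8 arrays for 4 of the 5, against 28.8% of all probes. It exceeded the mean of the other 3 miR-126+/+ arrays by 0.89 and 0.54 for the Cxcl12 probes, 1.15 for Cxcr4, 0.52 for Cxcr7 and 0.34 for Rgs16. It also had the lowest 75th percentile signal, 518 against up to 736, and the fewest probes above background. The genotype differences of the 5 probes are therefore given with and without it, and those of other pathway genes without it where the value moved by over 1.5 times or turned sign.

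Across all 32484 probes tested, 12 (0.0369%) passed an adjusted p of 0.05 in limma with Benjamini-Hochberg adjustment, 6 higher (0.0185%) and 6 lower (0.0185%) in miR-126-/- arteries. None of the 5 probes of the axis was among them. That count of 12 depended on single arrays: it was 2 without miR-126-/- 1, 0 without miR-126-/- 2, 3 without miR-126-/- 3, 7 without miR-126+/+ 1, 0 without miR-126+/+ 2 and 51 without miR-126+/+ 4. Unadjusted p-values were under 0.05 for 9.85% of probes, and the values of the 2 genotypes did not overlap for 5.95%. For the axis these counts were 1 of 5 and 1 of 5, both Rgs16.

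Cxcl12, the ligand, was measured by 2 probes. Signals of different probes depend on the probe, so levels are compared between mice and not between genes. On the variant 3 probe Cxcl12 measured 5.63, 5.45, 5.70 and 5.43 in the miR-126-/- mice, against 4.98, 5.17, 6.04 and 5.30 in the miR-126+/+ mice. The miR-126-/- values fell within a narrow band that lay above 3 of the miR-126+/+ values and below the fourth, so the genotypes overlapped. The difference was 0.18 ± 0.22 (SE, 95% interval -0.32 to 0.69), a ratio of 1.14, with adjusted p = 0.845 in limma. An exact two-sided permutation test of the same value over 70 arrangements of the arrays gave p = 0.486.

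Without miR-126+/+ 3 the Cxcl12 difference was 0.41 ± 0.12, with an unadjusted p of 0.0114 and an adjusted p of 0.363 (limma). In that fit 3260 of 32192 probes had an unadjusted p under 0.05. The array was set apart for its high values of these same probes, so leaving it out lowers the miR-126+/+ mean by construction. The p-values without it are therefore no independent support. Without miR-126+/+ 1 the Cxcl12 difference was 0.053, without miR-126+/+ 2 it was 0.12, and with normexp background correction it was 0.088. On this probe the size of the difference moved with single miR-126+/+ arrays, and none of 23 alternatives brought it past the adjusted threshold.

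The variant 1 probe of Cxcl12 measured 5.23, 5.14, 5.37 and 5.53 in the miR-126-/- mice, against 4.84, 4.93, 5.44 and 4.92 in the miR-126+/+ mice. Again 3 of the miR-126+/+ values lay below every miR-126-/- value, and miR-126+/+ 3 lay among them. The difference was 0.29 ± 0.16 (95% interval -0.076 to 0.65), a ratio of 1.22, with adjusted p = 0.633 (limma) and exact p = 0.143. Without miR-126+/+ 3 it was 0.42 ± 0.12, with an unadjusted p of 0.00797 and adjusted p = 0.334 (limma). The limit given above for leaving out that array holds here as well. With normexp background correction the variant 1 difference was 0.41 ± 0.14, with adjusted p = 0.360 (limma). Over its 21 alternatives it was 0.22 to 0.42 and never passed the adjusted threshold.

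The 2 Cxcl12 probes were set against each other within each array. The variant 3 signal minus the variant 1 signal was 0.40, 0.32, 0.33 and -0.093 in miR-126-/- arteries and 0.14, 0.24, 0.60 and 0.38 in miR-126+/+ arteries. The genotypes overlapped, with means of 0.24 ± 0.22 and 0.34 ± 0.20 (SD, n = 4 each) and an exact two-sided permutation p of 0.543. No shift between the variants was detectable with 4 arrays each.

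**Figure D1:**
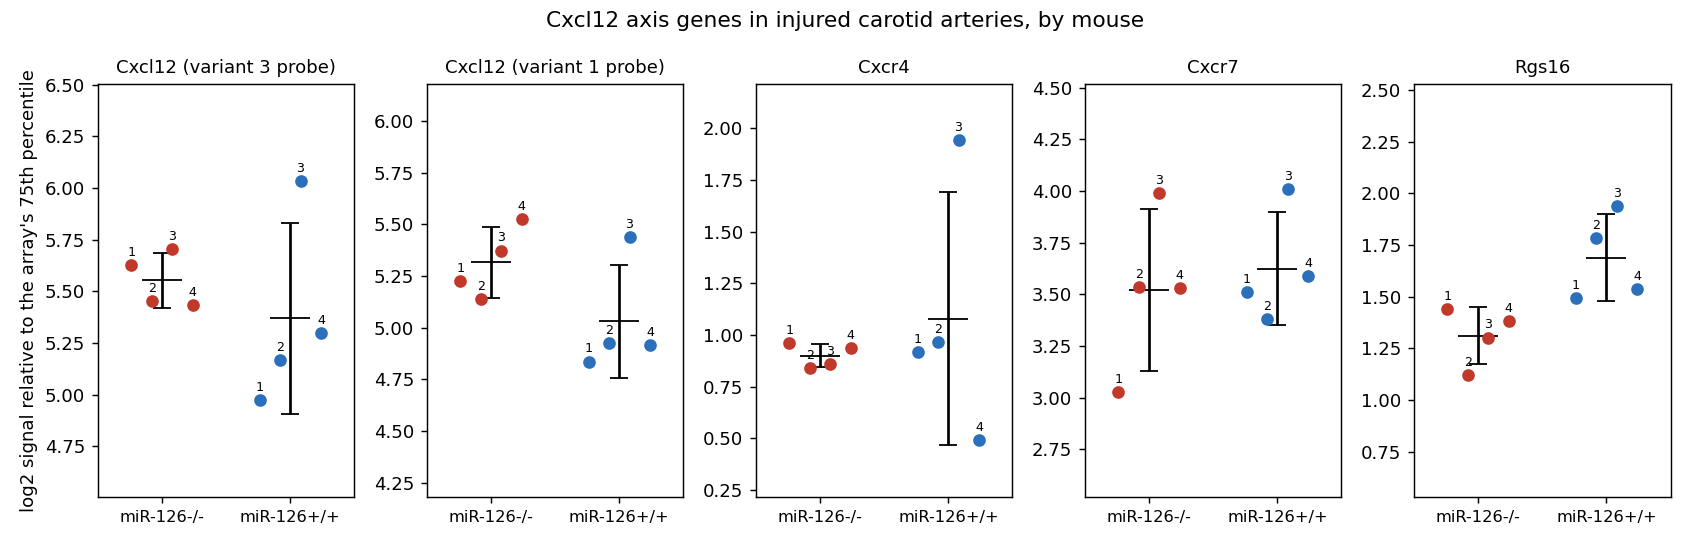
Levels of each probe of the axis (y axis, log2 signal with the array's 75th percentile at 0) by genotype, 1 point per mouse with its replicate number and bars for the mean ± SD of 4 arrays. The y axes cover different levels with the same span. Rgs16 alone shows no overlap, with miR-126-/- values of 1.12 to 1.44 under miR-126+/+ values of 1.49 to 1.94, and miR-126+/+ 3 is the highest miR-126+/+ point in every panel.

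Cxcr4, the signalling receptor, measured 0.96, 0.84, 0.86 and 0.94 in the miR-126-/- mice, against 0.92, 0.97, 1.94 and 0.49 in the miR-126+/+ mice. The miR-126-/- values spanned 0.118 and lay inside the miR-126+/+ range of 1.45, whose ends were miR-126+/+ 3 and miR-126+/+ 4. The means were 0.90 ± 0.058 and 1.08 ± 0.61 (SD, n = 4 each). Their difference was -0.18 ± 0.28 (95% interval -0.81 to 0.46), a ratio of 0.884, with adjusted p = 0.891 (limma) and exact p = 0.686. Without miR-126+/+ 3 the sign turned, to 0.11 ± 0.13 with adjusted p = 0.819, and without miR-126+/+ 4 it was -0.37.

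The SD of Cxcr4 in miR-126-/- over that in miR-126+/+ arteries was 0.094, where the median over all probes was 0.794 and 0.326% of probes had a smaller ratio. Without miR-126+/+ 3 the Cxcr4 ratio was 0.221, beside a median of 0.974, and 2.55% of probes had a smaller one. The Cxcl12 variant 3 probe had a ratio of 0.285, and 0.817 without that array. The ratio of the Cxcl12 variant 1 probe turned direction, from 0.619 with all arrays to 3.39 without it. For Cxcr7 it was 1.45 with all arrays and 3.76 without it, and for Rgs16 0.656 and 0.878. All of these ratios thus rose without miR-126+/+ 3, as the median over all probes did, and only that of the variant 1 probe turned direction. For Rgs16, 38.1% of probes had a smaller ratio with all arrays and 44.1% without it. No ratio was tested.

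Cxcr7, the scavenging receptor, measured 3.03, 3.54, 3.99 and 3.53 in the miR-126-/- mice, against 3.51, 3.38, 4.01 and 3.59 in the miR-126+/+ mice. The highest values of both genotypes were nearly equal and the lowest was miR-126-/- 1, so the genotypes overlapped. The means were 3.52 ± 0.39 and 3.62 ± 0.27 (SD, n = 4 each). The difference was -0.10 ± 0.22 (95% interval -0.61 to 0.40), a ratio of 0.931, with adjusted p = 0.922 (limma) and exact p = 0.743. Its sign turned without miR-126-/- 1 (0.061), without miR-126+/+ 3 (0.026) and with normexp background correction (0.046). Without miR-126-/- 3 it was -0.26.

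Rgs16, the regulator named as a target of miR-126, measured 1.44, 1.12, 1.30 and 1.38 in the miR-126-/- mice, against 1.49, 1.79, 1.94 and 1.54 in the miR-126+/+ mice. Every miR-126-/- value lay below every miR-126+/+ value, although miR-126-/- 1 and miR-126+/+ 1 were close. The same held, in the lower direction, for 2.27% of all probes. The means were 1.31 ± 0.14 and 1.69 ± 0.21 (SD, n = 4 each), a difference of -0.38 ± 0.13 (95% interval -0.68 to -0.077) and a ratio of 0.770. Loss of the repression known in endothelial cells would give the opposite direction for Rgs16. Both Cxcl12 probes also differed opposite to what that relation would give. Neither gene passed the adjusted threshold, and the reason for these directions in whole arteries was not tested.

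The Rgs16 difference did not pass the threshold: its unadjusted p was 0.0201, smaller than that of all but 5.13% of probes, and its adjusted p was 0.391 (limma, 4 of 4 arrays lower). The exact two-sided permutation test gave p = 0.0286, which is the smallest that 4 arrays against 4 allow. Every probe whose genotypes do not overlap gets that p, which is 5.95% of all probes. Without miR-126+/+ 3 the difference was -0.29 ± 0.12 with adjusted p = 0.481. With normexp background correction it was -0.19 ± 0.12 with adjusted p = 0.670. All 23 alternatives gave a negative Rgs16 difference, the largest being -0.44 without miR-126+/+ 1. Several of them, such as the filters and the exact test, leave the difference as it was, so its sign could not turn there.

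**Figure D2:**
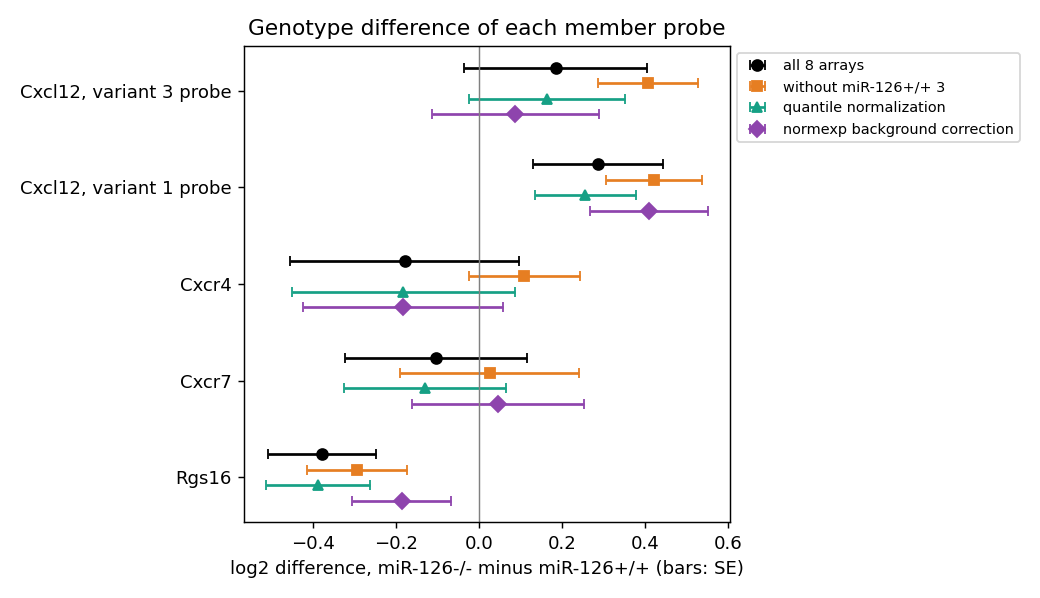
Genotype difference of each probe (x axis, log2 units, miR-126-/- minus miR-126+/+, bars for the standard error) with all 8 arrays, without miR-126+/+ 3, and under 2 other normalizations. The Rgs16 points lie left of 0 under all 4 settings (-0.38, -0.29, -0.39 and -0.19), the Cxcl12 points right of 0, and the Cxcr4 and Cxcr7 points on both sides.

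Markers of cells outside the vessel wall proper were read beside these values. Among all probes 51.4% were higher in miR-126-/- arteries and 9.85% had an unadjusted p under 0.05. All 12 adipocyte markers measured were higher in miR-126-/- arteries, by a median of 1.32, and 10 of them had an unadjusted p under 0.05. Their summed linear signal, relative to each array's 75th percentile, ranged from 676 to 1165 in miR-126-/- and from 312 to 647 in miR-126+/+ arteries, so the genotypes did not overlap. The mean of the adipocyte markers was 0.22 to 1.04 in miR-126-/- and -1.34 to -0.018 in miR-126+/+ arteries. A fit with that mean as a covariate can thus hardly separate it from genotype. In that fit the differences (± SE) were -0.35 ± 0.25 for Rgs16, 0.32 ± 0.41 for Cxcl12, 0.38 ± 0.46 for Cxcr4 and -0.20 ± 0.41 for Cxcr7. Each had an adjusted p of 0.99995 (limma).

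All 6 B and plasma cell markers measured, of 8 listed, were higher in miR-126-/- arteries, with a summed signal of 9.33 to 22.4 against 3.31 to 5.46. The 10 endothelial markers summed to 150 to 201 in miR-126-/- and 118 to 151 in miR-126+/+ arteries, with 9 of 10 higher. The 9 T cell markers measured, of 10 listed, summed to 12.5 to 39.3 and 9.28 to 26.5, with 9 of 9 higher. Macrophage markers summed to 244 to 341 in miR-126-/- and 247 to 353 in miR-126+/+ arteries, and smooth muscle markers to 359 to 588 and 380 to 448. Only the adipocyte and B cell sums did not overlap between genotypes. Fibroblast markers summed to 1466 to 1634 in miR-126-/- and 1422 to 1941 in miR-126+/+ arteries, neutrophil markers to 181 to 348 and 207 to 366, skeletal muscle markers to 9.92 to 185 and 5.96 to 156, and Schwann cell markers to 54.4 to 81.9 and 42.3 to 89.4. Each marker counted was above background on at least 3 arrays of a genotype. The part of these cells in the values of the axis was not tested beyond the adipocyte and skeletal muscle covariates. With the skeletal muscle covariate the Rgs16 difference was -0.39 with adjusted p = 0.370 (limma).

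On miR-126+/+ 3 the T cell list mean was 0.79 and the macrophage list mean 0.35 above the mean of the 8 arrays, and the Schwann cell list mean was the lowest of all, at -1.01. Its fibroblast list mean was the highest of the 8, at 0.21, and its adipocyte list mean was -1.07. Its Cxcr4 value was the highest of the 8. The T cell list mean was higher still on miR-126-/- 4, at 1.40, where Cxcr4 was 0.94, and the macrophage list mean was 0.27 on miR-126-/- 3, where Cxcr4 was 0.86. Whether any of these lists bears on the Cxcr4 values was not tested.

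The 4 genes were compared with one another over the 8 arrays, which share the scaling of each array, in 6 pairs. Cxcl12 and Cxcr4 gave Pearson's r = 0.665 (exact permutation p = 0.0753, adjusted over the 6 pairs 0.279) and Spearman's rho = 0.238 (exact p = 0.582, adjusted 0.902). Without the 2 arrays farthest from the median of Cxcl12, r was 0.236, and without miR-126+/+ 3 it was 0.051, so the relation rested on that array. Cxcr4 and Rgs16 gave r = 0.640 (exact p = 0.0931, adjusted 0.279) and rho = 0.571 (exact p = 0.151, adjusted 0.513). Here r was 0.824 without the 2 farthest arrays and 0.028 without miR-126+/+ 3 alone.

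Cxcl12 and Cxcr7 gave r = 0.471 (exact p = 0.239, adjusted 0.479) and rho = 0.548 (exact p = 0.171, adjusted 0.513), and r = 0.193 without the 2 farthest arrays. Cxcl12 and Rgs16 gave r = 0.191 (exact p = 0.655, adjusted 0.666) and rho = -0.143 (exact p = 0.752, adjusted 0.902). Cxcr4 and Cxcr7 gave r = 0.419 (exact p = 0.348, adjusted 0.521) and rho = -0.214 (exact p = 0.619, adjusted 0.902). Cxcr7 and Rgs16 gave r = 0.190 (exact p = 0.666, adjusted 0.666) and rho = 0.048 (exact p = 0.935, adjusted 0.935). These last 3 correlations turned negative without the 2 farthest arrays, and no pair passed the adjustment. With 4 arrays in a genotype, no correlation within a genotype was computed.

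The transcripts whose values most resembled each gene's were picked from the whole array, so their correlations are high by choice. Among 28091 probes above background on all 8 arrays, the named genes with the highest Pearson correlation to Cxcl12 were Kdm7a (0.973), which encodes a histone demethylase, Col23a1 (0.958), a transmembrane collagen, and Etv3 (0.949), an ETS family repressor. For Cxcr4 they were Donson (0.983), a replication factor, Cnnm4 (0.978), a magnesium transporter, and Heatr1 (0.977), a ribosome biogenesis factor. For Cxcr7 they were Cd55 (0.975), which restrains complement, Zfp51 (0.971), a zinc finger protein, and Map2k2 (0.966), the kinase MEK2. For Rgs16 they were Glycam1 (0.973), a mucin-like L-selectin ligand, Rab4b (0.966), a small GTPase, and Psmd7 (0.964), a proteasome subunit. Without miR-126+/+ 3 these 12 correlations were 0.908 to 0.974. They are the top of many over 8 arrays and serve only as a description.

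The other genes of the pathway were read from 9 lists holding 104 genes, of which 101 were measured. Of these, 0 passed the adjusted threshold in limma, where 0.0369% of all probes did, and the smallest adjusted p was 0.175. At an unadjusted p under 0.05 there were 2 higher and 2 lower genes in miR-126-/- arteries, against 6.33% and 3.52% of all probes. The genotypes did not overlap for 1 higher and 3 lower genes, against 3.68% and 2.27% of all probes. The median difference of the listed genes was -0.073, beside 0.0062 over all probes, with 30 genes above 0 and 71 below. Of all probes 51.4% lay above 0, a share to set beside the counts of each list below.

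Among the other ligands of these receptors, Adm encodes adrenomedullin, a vasodilator peptide that binds CXCR7. Adm measured 1.33, 1.77, 1.78 and 1.25 in the miR-126-/- mice, against 0.91, 1.03, 0.51 and 1.02 in the miR-126+/+ mice. The genotypes did not overlap, as for 3.68% of all probes in the higher direction. The difference of 0.67 ± 0.18, a ratio of 1.59, did not pass adjustment (adjusted p = 0.272, limma). Cxcl11, which shares CXCR7 with CXCL12, differed by -0.059 ± 0.11, and Mif, a cytokine that binds CXCR4, by -0.033 ± 0.17, each on its brighter probe. Their other probes gave 0.0079 ± 0.12 and 0.0074 ± 0.15. Hmgb1, a nuclear protein that forms a complex with CXCL12, differed by -0.18 ± 0.19 on the brightest of 6 probes and by -0.23 to 0.064 on the others. Without miR-126+/+ 3 the Hmgb1 difference was -0.059, that of Mif turned to 0.13 and that of Cxcl11 was -0.00011. The median of these 4 genes was -0.046, and it was 0.067 without miR-126+/+ 3 and 0.027 with normexp.

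All 9 co-receptors and related chemokine receptors had differences below 0, with a median of -0.29 that was -0.052 without miR-126+/+ 3. Without that array Cxcr6, Ccr7 and Cxcr5 turned to 0.031, 0.039 and 0.13, and Cd74 turned as well. Ackr1, a chemokine-binding receptor of venules and red cells, measured 0.80, 0.87, 1.56 and 1.17 in the miR-126-/- mice, against 1.92, 2.16, 2.20 and 1.81 in the miR-126+/+ mice. No value overlapped, as for 2.27% of all probes in the lower direction, and the ratio was 0.527. The difference was -0.92 ± 0.18, with adjusted p = 0.175 (limma) and 0.281 without miR-126+/+ 3. Cd74, the receptor of MIF that partners CXCR4, differed by -0.034 ± 0.18, and by 0.047 without miR-126+/+ 3. Ackr4, a scavenger of other chemokines, differed by -0.47 ± 0.25. Cxcr2, a receptor of neutrophils that binds MIF, differed by -0.79 ± 0.56, and by -0.22 without miR-126+/+ 3.

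**Figure D3:**
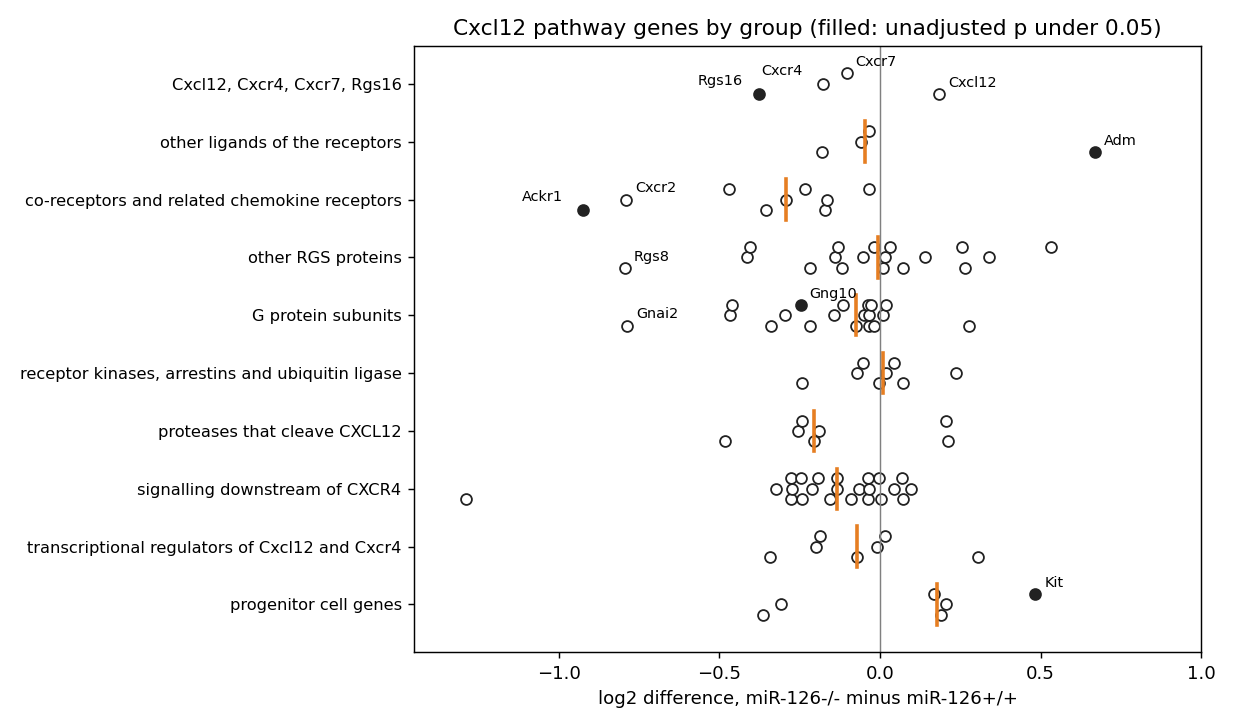
Genotype difference of each measured pathway gene (x axis, log2 units, miR-126-/- minus miR-126+/+), 1 point per gene, grouped by list down the page, with the list median as an orange bar and filled points for an unadjusted p under 0.05. The listed medians lie between -0.29 for the co-receptors and related receptors and 0.18 for the progenitor cell genes, and Ackr1 (-0.92), Gng10 (-0.25), Adm (0.67) and Kit (0.48) are the filled points beside Rgs16 (-0.38).

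The other RGS proteins, which act on G proteins as RGS16 does, were split evenly. Of 20 listed, 18 were measured, with 9 above 0, 9 below and a median of -0.0047, and none had an unadjusted p under 0.05. Rgs5, a regulator of pericytes and arterial smooth muscle, differed by 0.25 ± 0.12 with adjusted p = 0.567 (limma). Rgs1, a regulator of chemokine responses in leukocytes, measured 1.08, 0.55, -0.08 and 0.26 in the miR-126-/- mice, against 0.63, -0.03, 1.32 and 1.55 in the miR-126+/+ mice, which overlapped; the difference was -0.41 ± 0.38, and -0.26 without miR-126+/+ 3. Rgs2, a regulator of Gq signalling and vascular tone, differed by -0.14 ± 0.30 on its brighter probe and by 0.17 on the other. The brighter probe gave 0.025 without miR-126+/+ 3 and 0.077 without miR-126-/- 3. Rgs3 differed by 0.14 ± 0.082 on its brightest probe, and its other probes went the other way, at -0.070 ± 0.095 and -2.29 ± 1.83. Rgs8, measured near background, differed by -0.79 ± 0.44 on one probe and by 0.41 ± 0.57 on the other. The unadjusted p of Rgs16 was smaller than that of each of these 18 genes, and no test of that order was made.

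G protein subunits carry the signal of CXCR4 into the cell. Of 19 measured, 16 had differences below 0, and the median was -0.074. Gng10, a gamma subunit, differed by -0.25 ± 0.090 with adjusted p = 0.419 (limma). Its genotypes did not overlap, as for 2.27% of all probes in the lower direction. Gnai2, the inhibitory alpha subunit through which CXCR4 signals in leukocytes, measured 5.74, 5.63, 3.83 and 5.72 in the miR-126-/- mice, against 5.93, 6.00, 6.23 and 5.92 in the miR-126+/+ mice. The genotypes did not overlap, and miR-126-/- 3 lay far below the other 7 arrays. The difference was -0.79 ± 0.42 with adjusted p = 0.616 (limma), and -0.32 without miR-126-/- 3. Gna12, another alpha subunit, differed by -0.30 ± 0.15.

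Receptor kinases, arrestins and the ubiquitin ligase Itch switch CXCR4 and CXCR7 off or route them inward. Of 8 measured genes 4 lay above 0 and 4 below, with a median of 0.0079. The sign of that median turned under normexp (-0.073), quantile normalization (-0.0023) and the 75th percentile over detected probes (-0.0097). Arrb2, an arrestin, differed by -0.24 ± 0.12, Arrb1, the other arrestin, by 0.072 ± 0.091, and Grk2, a receptor kinase, by 0.24 ± 0.16, or 0.38 without miR-126+/+ 3.

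Proteases can cut CXCL12 and take away its activity. Of 8 listed, 7 were measured, with 2 above 0 and 5 below and a median of -0.21 that was 0.078 without miR-126+/+ 3. Dpp4, the peptidase that trims the chemokine's amino end, differed by 0.21 ± 0.14 with adjusted p = 0.717 (limma). Mmp9, a gelatinase, measured -1.07, -0.44, 0.21 and -0.70 in the miR-126-/- mice, against -0.46, -0.58, 1.89 and -0.92 in the miR-126+/+ mice. miR-126+/+ 3 was far above the other 7 arrays, and the difference of -0.48 ± 0.61 was 0.15 without it. Mmp2, a gelatinase of the vessel wall, differed by -0.21 ± 0.20 and Elane, neutrophil elastase, by -0.24 ± 0.14. Without miR-126+/+ 3 these were -0.078 and -0.16.

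**Figure D4:**
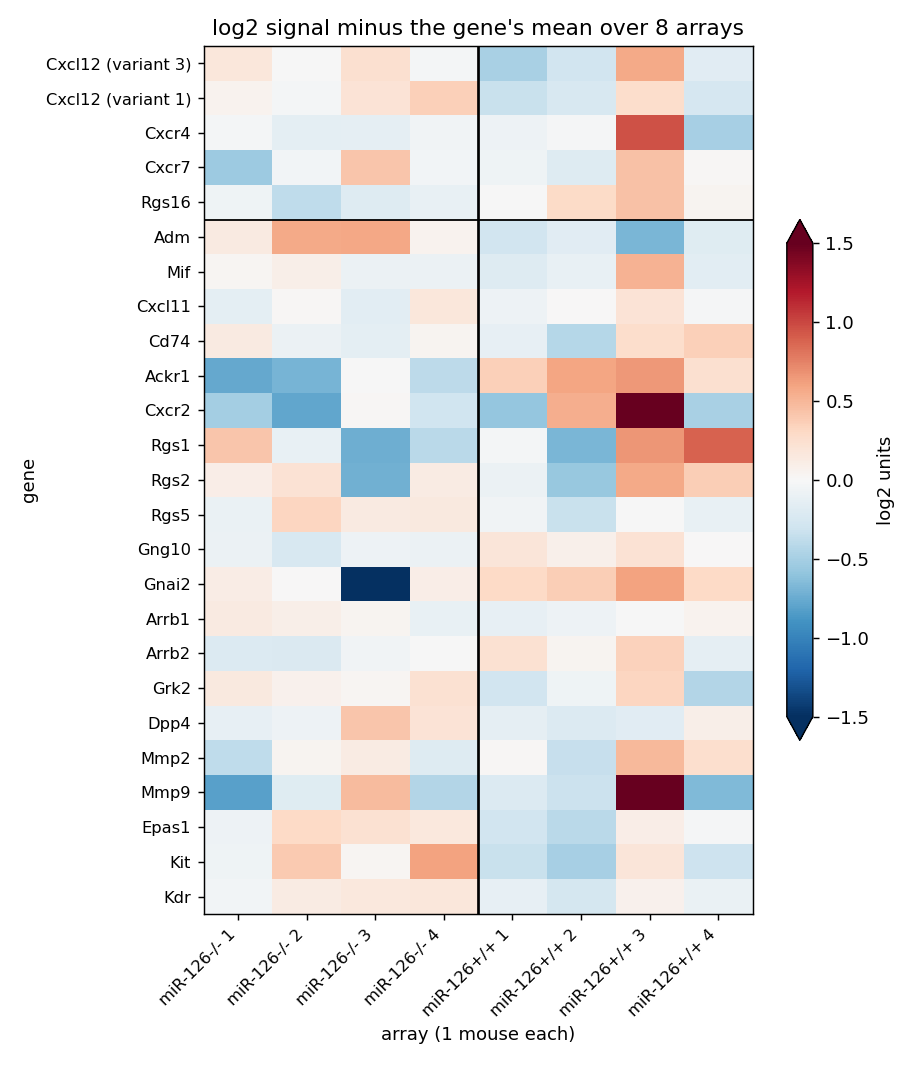
Log2 signal of axis genes (above the horizontal line) and named pathway genes minus each gene's mean over 8 arrays (colour, log2 units), with miR-126-/- arrays in the left 4 columns and miR-126+/+ arrays in the right 4. Values beyond 1.5 in size share the end colours. The column of miR-126+/+ 3 is red for Cxcl12, Cxcr4, Cxcr7 and Rgs16 and darkest for Cxcr2 and Mmp9, and blue for Adm.

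Of the 23 genes of signalling downstream of CXCR4, 18 lay below 0 and 5 above, with a median of -0.13 that was -0.038 without miR-126+/+ 3. None had an unadjusted p under 0.05. Plcb2, a phospholipase of blood cells, differed by -0.27 ± 0.12, Pxn, a focal adhesion adaptor, by -0.32 ± 0.17, and Pik3r5, a subunit of the leukocyte PI3 kinase, by -0.28 ± 0.15. Without miR-126+/+ 3 Pxn differed by -0.20 and Pik3r5 by -0.14. Ptk2b, a kinase related to focal adhesion kinase, was picked out after its values were seen, as the point farthest from 0 at -1.29 ± 1.15. It was -3.98 on miR-126-/- 4 and 1.01 to 1.68 on the other 7 arrays. On miR-126-/- 4, 123 spots that were above 0 on every other array read over 2 log2 lower than on each of them. Of these, 120 lay in a dim area of the array. The Ptk2b value is of that form, and whether its spot lay in the area was not tested. Among 7 transcriptional regulators the median was -0.072. Epas1, a hypoxia-inducible factor, differed by 0.30 ± 0.14 on its brightest probe and by 0.11 ± 0.16 and 0.014 ± 0.097 on its others. Nfkb1, an NF-kappaB subunit, differed by -0.20 ± 0.13 and Yy1, a zinc finger regulator, by -0.19 ± 0.13. Without miR-126+/+ 3 the Nfkb1 difference was -0.095 and that of Yy1 -0.096.

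Genes listed for the progenitor cells that CXCL12 is known to recruit had a median of 0.18 over 6 measured, with 4 above 0. Whether progenitor cells gave these values was not tested, and Kdr is also among the endothelial markers above. Kit, the receptor of stem cell factor, measured 0.40, 0.85, 0.49 and 1.07 in the miR-126-/- mice, against 0.13, -0.04, 0.64 and 0.15 in the miR-126+/+ mice. The genotypes overlapped through miR-126+/+ 3, and the difference of 0.48 ± 0.20 had an adjusted p of 0.479 (limma). Kdr, a VEGF receptor also carried by endothelium, differed by 0.21 ± 0.10 on its brighter probe and -0.040 ± 0.16 on the other. Flt3, a receptor of early blood progenitors, differed by -0.31 ± 0.17 on its brighter probe, or -0.15 without miR-126+/+ 3, and by 0.054 ± 0.33 on the other.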

How the data were processed

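RNA of 8 carotid arteries was measured on 1-colour Agilent arrays, 1 array per mouse. The authors deposited scanner output whose intensity column is background-subtracted, made with Agilent Feature Extraction 10.7.3.1 on mm9 annotation, per the file headers. Replicates were not pooled, and precision is limited by the number of arrays. Control spots and spots called outliers by the scanner software, of which an array had 146 to 216, were removed, and the spots of each probe were averaged to give 55681 probes. Log2 intensity minus the array's 75th percentile was fitted with limma 3.58.1 in R 4.3.3 (lmFit, eBayes; 6 residual degrees of freedom), with Benjamini-Hochberg adjustment over 32484 probes well above background on at least 3 of 4 arrays of a genotype; 54 of these probes missed an array. Exact tests of differences were computed in R and those of relations in Python 3.11.15 with numpy 2.4.6, with r and rho from scipy 1.17.1. Symbols came from RefSeq for 47.4% of probes and otherwise from the files. The steps were tested on simulated data. The deposited value table of the series, whose scale the labels do not state, gave intensity values within 0.1 log2 of the scanner values for 99.9% of probes on each array, with column medians of 41.7 to 57.5, and served as an alternative.

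The axis genes and all lists were chosen with earlier results of these data known. A gene is given by its brightest probe. Named were all probes of the 4 genes, Egfl7 and Apoe, 9 preset pathway genes, from each list the 3 genes of smallest unadjusted p, and the 3 genes most like each axis gene. Apoe was 2.62 ± 0.27 in miR-126-/- and 2.00 ± 0.54 in miR-126+/+ arteries (adjusted p = 0.507), and every mouse is labelled ApoE-/-; whether its probe lies in the disrupted part was not analysed here. Alternatives were the background correction, normalization, filter, probe summary, variance model, replicate block, marker covariates, a dim area on miR-126-/- 4 that held 0 of the axis spots, and each array left out.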

Additional observations from a re-analysis of the deposited data

Results flagged for a closer look

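Of 74 groups of 4 arrays checked for 1 array far from the rest (37 genes or probes in 2 genotypes), 7 stood out, where chance gives about 5% of groups. The number given is the gap to the nearest array as a share of the group's range. The Cxcl12 variant 1 probe was 5.44 on miR-126+/+ 3, against 4.84 to 4.93 on the other 3 (share 0.849). Mif was 6.14 on that array against 5.43 to 5.51 (0.880), Mmp9 was 1.89 against -0.92 to -0.46 (0.836), and Nfkb1 was 1.47 against 1.02 to 1.08 (0.871). These 4 were thus all high values of miR-126+/+ 3.

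Gnai2 was 3.83 on miR-126-/- 3, against 5.63 to 5.74 on the other 3 miR-126-/- arrays (share 0.945). Rgs2 was 3.31 on the same array against 4.13 to 4.25 (0.878). Gng10 was 2.26 on miR-126-/- 2 against 2.41 to 2.43 (0.895). The cause was not tested for any of the 7.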

How the results depend on the processing

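With 4 arrays a genotype, 1 slide and slide row tied to genotype, leaving out 1 array could turn the Cxcr4 and Cxcr7 differences and move that of Cxcl12 several-fold, while that of Rgs16 stayed between -0.44 and -0.29. The number of probes called, 12 as reported, was 34 with normexp, 7 when probes had to be above background on all 8 arrays, 23 with 1 probe per gene, 56 with array weights, 0 with the adipocyte covariate (1315 at an unadjusted p under 0.05), 1 with the skeletal muscle covariate, and 0 to 51 leaving out 1 array. Several alternatives, such as the filters, the replicate block and the exact test, leave a difference as it was, so its sign could not turn there. The Cxcl12 difference was positive and short of the threshold under all 23 alternatives (0.053 to 0.41, adjusted p 0.363 to 0.99995). The Cxcr4 difference turned positive with the adipocyte covariate (0.38 ± 0.46, SE), and ranged from -0.37 to 0.11 leaving out 1 array. The Cxcr7 difference turned positive with normexp (0.046), and ranged from -0.26 to 0.061 leaving out 1 array. The Rgs16 difference of -0.38 was negative in all 23, including those that leave it as it was (-0.44 to -0.19, adjusted p 0.266 to 0.99995). Its exact permutation p of 0.0286 is the smallest possible. Every probe without overlap between genotypes reaches it, 5.95% of all probes.

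The relations reversed without the 2 farthest arrays for Cxcl12 and Rgs16 (r = -0.66), Cxcr4 and Cxcr7 (-0.69) and Cxcr7 and Rgs16 (-0.47), and without miR-126+/+ 3, a choice made after seeing the data, for the same pairs (-0.55, -0.32 and -0.31). List medians that reversed under alternatives also added after seeing the data were those of the ligands (0.067 without miR-126+/+ 3, 0.027 with normexp), the other RGS proteins (0.010 without miR-126+/+ 3), the proteases (0.078 without it), and the kinases and arrestins (-0.073 with normexp, -0.0023 with quantile normalization, -0.0097 with the 75th percentile over detected probes). List medians that kept their sign but moved by over 1.5 times with normexp were those of the G protein subunits (-0.11), the transcriptional regulators (-0.038) and the other RGS proteins (-0.033). That of the other RGS proteins was -0.014 with quantile normalization and -0.022 with the percentile over detected probes. Without miR-126+/+ 3, those of the co-receptors (-0.052), the downstream genes (-0.038) and the kinases and arrestins (0.029) moved by over 1.5 times. The cause was not tested.

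Both genotypes carry replicate numbers 1 to 4, which match the slide column. Arrays of the same number did not deviate together (correlations 0.175, -0.285, -0.042 and -0.00025), so the numbers were not taken as pairs. With the replicate block, 0 probes passed the threshold (limma; 2888 at an unadjusted p under 0.05), and the adjusted p of Rgs16 was 0.586.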
